A study of Mus musculus with 12 samples.

Results

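Tet2-/- haematopoietic cells that carried the leukaemia fusion AML1-ETO were compared between passage 10 and passage 2 after loss of Tet2. The difference was taken between 6 of the 12 arrays of the series, 3 at each passage, and 16860 genes were tested. The spread of each gene and the effect of the replicate number were estimated from all 12 arrays. The members were chosen by their labels alone. Kit-enriched bone marrow cells of Tet2fl/fl;CreER mice had been transduced with the retroviral vector MigR1-AE-IRES-GFP and cultured with SCF, IL-3 and IL-6. The Tet2-/- cells had received 200 nM 4-OHT for 2 passages, or 4 days, which activates CreER and deletes the floxed Tet2. The Tet2fl/fl cells, the other 6 arrays, had received ethanol for the same time and carried the same fusion, floxed alleles and CreER. Cells were passaged every 2 days, and GFP+, CD11b-, Gr1-, CD16/32+ immature myeloid cells were sorted for RNA. No array held cells without AML1-ETO, and no Tet2fl/fl array held cells exposed to 4-OHT.

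TET2 oxidises methylated cytosine in DNA, and its loss is common in myeloid leukaemia. AML1-ETO joins the DNA-binding domain of RUNX1 to the corepressor-binding protein RUNX1T1 and keeps myeloid progenitors dividing in culture with little maturation. Cells that leave this state usually shut down genes of DNA synthesis and mitosis and turn on granule, receptor and adhesion genes of the mature lineages.

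All values are log2 signals after RMA, an array normalisation, and all differences are passage 10 minus passage 2 in log2 units, so that 1 unit is a fold change of 2. Each group held 3 arrays with replicate numbers 1 to 3. Whether a number marks its own culture is not in the labels, and the p-values therefore cover the spread among these arrays, which may be technical, and the number of arrays limits the precision. Arrays with the same number deviated together, and the number was therefore kept as a term of the fit, the replicate block. In the Tet2-/- arrays the labelled cell type was checked on a few genes. Kit lay between 9.56 and 10.36, Cd34 between 11.75 and 12.30 and Mpo between 11.60 and 12.67, and none of these passed the threshold. The row of Runx1t1, the ETO part of the fusion, lay between 9.31 and 9.79 at passage 2 and between 9.91 and 10.13 at passage 10, without overlap, and the difference of 0.44 did not pass (adjusted p = 0.168). Of the genes behind the sort, Itgam (CD11b) lay between 8.08 and 8.35 and Fcgr2b (CD32) between 11.37 and 11.58, with overlapping groups. Fcgr3 (CD16) lay between 10.57 and 11.01 at passage 2 and between 10.94 and 11.13 at passage 10, a difference of 0.28 that did not pass (adjusted p = 0.0722). Ly6g, part of the Gr1 epitope, was 5.06, 6.32 and 6.04 at passage 2 and 6.34, 7.61 and 6.92 at passage 10, without overlap, yet its adjusted p of 0.0628 missed the threshold. Ly6c2, also listed for the sort gate, was 11.43, 12.26 and 12.09 and then 11.85, 12.65 and 12.27, with overlapping groups. Its difference of 0.33 did not pass (adjusted p = 0.106), and its signal was high in cells sorted as Gr1-. Tet2 was 9.97, 9.89 and 9.98 at passage 2 and 9.92, 9.64 and 9.93 at passage 10, a difference of -0.11 (adjusted p = 0.363). In the Tet2fl/fl arrays it was 9.94, 9.89 and 10.08 and then 9.91, 9.80 and 9.93. The row was thus about as high in Tet2-/- as in Tet2fl/fl arrays and does not show the deletion, and where its probes lie relative to the deleted part was not analysed here.

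Late-passage Tet2-/- cells had less RNA of the cell division programme, of ribosome assembly genes and of several neutrophil granule genes, and more RNA of some platelet and integrin genes. With an adjusted p under 0.05 in limma (Benjamini-Hochberg over all genes), 1339 genes passed, 7.94% of those tested. Of these, 550 were higher at passage 10 (3.26%) and 789 lower (4.68%). All 1339 had the same sign in each of the 3 same-numbered pairs, and in 1198 the groups did not overlap. Groups without overlap were found for 28.3% of all genes tested. Most changes were small, with a median rise of 0.45 and a median fall of -0.51. A change of at least 1.5-fold was found for 133 genes that rose and 263 that fell, and one of at least 2-fold for 13 and 46.

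The number of calls rested on the block and on single arrays. Without the block 503 genes passed (2.98%), 211 higher (1.25%) and 292 lower (1.73%), all of them among the 1339. Leaving out Tet2-/- passage 2 replicate 3 left 76 calls, and leaving out replicate 1 of that group left 136. Without Tet2-/- passage 10 replicate 1, 2 or 3 the count was 363, 234 or 211, and without passage 2 replicate 2 it was 838. Of the 128 genes and rows named in the text that passed, 18 passed in each of the 6 fits without 1 of these arrays and 35 in none of them. MicroRNA rows without a printed sequence are not among the 128. The share of calls that were higher, 41.08%, became 54.38% (714 of 1313) with equal array medians and 58.54% (922 of 1575) after quantile normalization. The gene groups are therefore given below relative to all genes tested, whose median difference was 0.04. Of all genes tested 9716 had a positive and 7144 a negative difference.

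**Figure D1:**
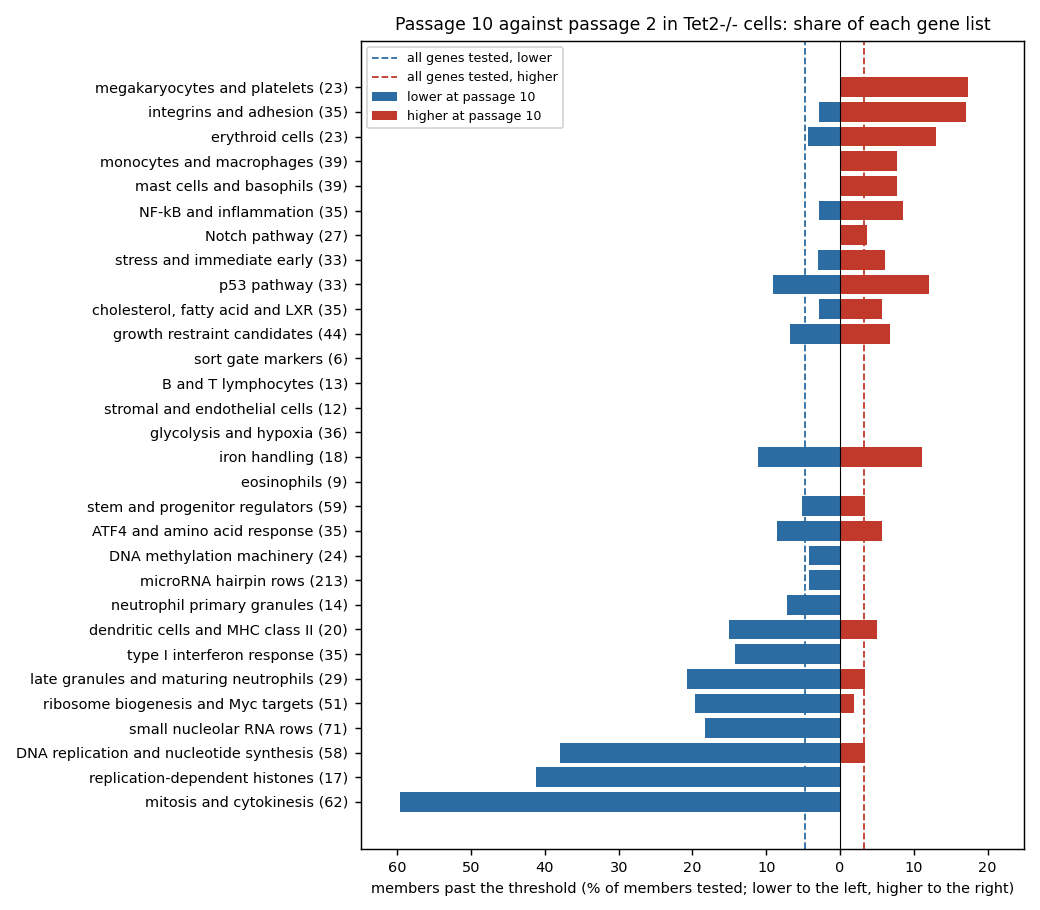
Share of each gene list past the threshold in Tet2-/- cells, in percent of the members tested (number in brackets), with members lower at passage 10 to the left in blue and members higher to the right in red. Dashed lines mark the shares over all genes tested, 4.68% lower and 3.26% higher; mitosis genes reach 59.68% lower and no glycolysis gene passed.

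Genes of mitosis and cytokinesis had the highest share of falls among the 28 lists. Of 62 genes tested, 37 fell (59.68%, against 4.68% of all genes) and 0 rose. The median difference was -0.45, and 61 of the 62 differences were negative. The mean of the list was 8.85, 8.71 and 9.21 at passage 2 and 8.40, 8.24 and 8.72 at passage 10. Replicate 3 at passage 10 thus lay as high as replicate 2 at passage 2, while each numbered pair fell by nearly the same amount, with median differences of -0.44, -0.50 and -0.50. Without the block 9 genes passed. Without Tet2-/- passage 2 replicate 3 the count was 5, without replicate 1 of that group 11, and without passage 10 replicate 1, 2 or 3 it was 16, 9 or 16.

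The falls covered each role in mitosis. Among cyclins, mitotic kinases and their activators 6 of 11 fell, among checkpoint and kinetochore genes 11 of 16, among kinesins, spindle and cytokinesis genes 12 of 21, and among genes of chromosome structure and mitotic exit 8 of 14. Sgo1, the shugoshin that protects centromeric cohesion, was 8.35, 8.32 and 8.77 at passage 2 and 7.63, 7.40 and 7.99 at passage 10. It fell by 0.81 (SE 0.08, adjusted p = 0.00513), with no overlap. Kif18a, a kinesin that aligns chromosomes, was 7.43, 7.56 and 7.96 and then 6.77, 6.40 and 7.27, and it fell by 0.84 (SE 0.12, adjusted p = 0.00954). Both groups were apart, with replicate 3 the highest at either passage. Spc25, a subunit of the Ndc80 complex that ties kinetochores to microtubules, fell by 0.78, and Cenpe, a kinetochore motor, by 0.76. Anln, the scaffold of the cleavage furrow, was 9.64, 9.27 and 9.87 and then 8.84, 8.53 and 9.17, and fell by 0.75 (SE 0.08, adjusted p = 0.00513). Ttk, the kinase at the head of the spindle checkpoint, fell by 0.73 while its groups overlapped (7.81 in passage 2 replicate 2, 7.85 in passage 10 replicate 3). Sgo1, Spc25 and Cenpe also passed without the block, whereas the adjusted p of Kif18a, Anln and Ttk was then 0.0772, 0.069 and 0.154. Sgo1 and Anln passed without any 1 of the 6 Tet2-/- arrays. Kif18a and Cenpe were lost without passage 2 replicate 3 alone (adjusted p = 0.0513 and 0.0564).

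Promoters of mitotic genes commonly hold a CCAAT box, bound by NF-Y, and a CHR element (TTTGAA), bound by the DREAM and MuvB complexes that repress these genes in resting cells. Both were searched on both strands in the RefSeq promoter windows of GRCm38.p6, which run from 250 bases before to 50 after each start. Of the 62 mitosis genes 51 had a window. TTTGAA was in 75% of their 56 windows, against 17.9% of all 32851 windows, and CCAAT in 71.4% against 37.4%. Both occurred together in 60.7% against 6.95%. In the 16302 windows of all genes tested, TTTGAA was in 12.8%, CCAAT in 36.7% and both in 5.04%. In the 34 windows of the mitosis genes that fell the shares were lower than in the whole list, with TTTGAA in 67.6%, CCAAT in 61.8% and both in 47.1%. Of the genes that fell, 3 had both letters wholly within the last 100 bases before the start, and these bases are shown as examples of how the 2 motifs lie in such a promoter. Capitals mark CCAAT and TTTGAA or their reverse complements ATTGG and TTCAAA, 5′ to 3′ on the gene's strand. Kif11 (chr19:37376282-37376381, plus strand), the motor that separates spindle poles, fell by 0.54. Ckap2l (chr2:129297213-129297312, minus strand), a spindle protein, fell by 0.46. Top2a (chr11:99024190-99024289, minus strand), the topoisomerase that untangles sister chromatids, fell by 0.45. A match describes the letters only, and the 3 genes were picked by this search and not by the naming rule.
Kif11: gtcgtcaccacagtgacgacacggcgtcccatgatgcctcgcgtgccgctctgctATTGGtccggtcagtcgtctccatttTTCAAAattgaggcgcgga
Ckap2l: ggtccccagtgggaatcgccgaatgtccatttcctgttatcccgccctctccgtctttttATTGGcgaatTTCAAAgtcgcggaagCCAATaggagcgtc
Top2a: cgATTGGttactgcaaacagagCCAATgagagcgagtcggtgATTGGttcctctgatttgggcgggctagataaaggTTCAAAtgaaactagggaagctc

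Genes of DNA replication and nucleotide supply fell too. Of 58 tested, 22 fell (37.93%, against 4.68% of all genes) and 2 rose (3.45%, against 3.26%), with a median difference of -0.40. The pairs were less even than for mitosis, with median differences of -0.41, -0.20 and -0.56. By role, 9 of 23 genes of origin licensing and firing, 7 of 23 of the polymerases and fork, and 6 of 12 of nucleotide supply fell. Gins1, a subunit of the replicative helicase, was 7.04, 6.83 and 7.47 at passage 2 and 6.37, 5.99 and 6.64 at passage 10, and fell by 0.78 (SE 0.15, adjusted p = 0.017). All passage 10 values were below all passage 2 values. The kinase Cdc7, which fires origins, fell by 0.70, and Orc6, of the origin recognition complex, by 0.65. Among enzymes of nucleotide supply, Dut, which removes dUTP, was 9.03, 8.82 and 8.93 and then 8.06, 8.31 and 8.42, and fell by 0.66 (adjusted p = 0.0148). CTP synthase Ctps fell by 0.69 and dCMP deaminase Dctd by 0.66. Dut, Ctps, Dctd and Orc6 passed without the block as well, whereas Gins1 and Cdc7 did not (adjusted p = 0.0623 for each). With 1 Tet2-/- array left out, Gins1, Dut, Dctd and Orc6 passed in 2 of 6 fits and Cdc7 and Ctps in 1. The 2 genes that rose were E2f2, a transcription factor of the cell cycle, by 0.55, and Rfc2, of the clamp loader, by 0.37; they are named for being the exceptions. Without the block 9 genes of the list were lower and 0 higher. The count of falls was 0 without Tet2-/- passage 2 replicate 1 or 3, and 4, 2 and 1 without passage 10 replicate 1, 2 and 3.

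The replication-dependent histones, made in S phase, moved with these genes. Only 17 of the 53 in the list were tested, since the others had no row of their own or lay below the signal filter. Of the 17, 7 fell (41.18%, against 4.68% of all genes) and 0 rose, with a median of -0.42 and no positive difference. H2bc9 was 8.57, 8.55 and 8.75 and then 7.99, 7.62 and 7.74, and fell by 0.84 (SE 0.15, adjusted p = 0.0151) without overlap. H2ac20 fell by 0.75, H2bc21 by 0.68 and H2bc3 by 0.64. H2ac20 and H2bc3 passed in all but 1 of the 6 fits that left out a Tet2-/- array, and H2bc9 and H2bc21 in 2. Histone genes are near-identical copies, and a row may take up RNA of its relatives. Without the block 3 fell. Leaving out Tet2-/- passage 2 replicate 3 left 0, replicate 1 of that passage 3 and replicate 2 of it 4, and leaving out passage 10 replicate 1, 2 or 3 left 3, 2 or 2. Uhrf1, which carries DNA methylation through replication, fell by 0.60 (adjusted p = 0.0314). It was the 1 of 24 genes of the DNA methylation machinery that passed (4.17%, near the 4.68% of all genes that fell). Uhrf1 passed in 1 of the 6 fits that left out a Tet2-/- array.

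**Figure D2:**
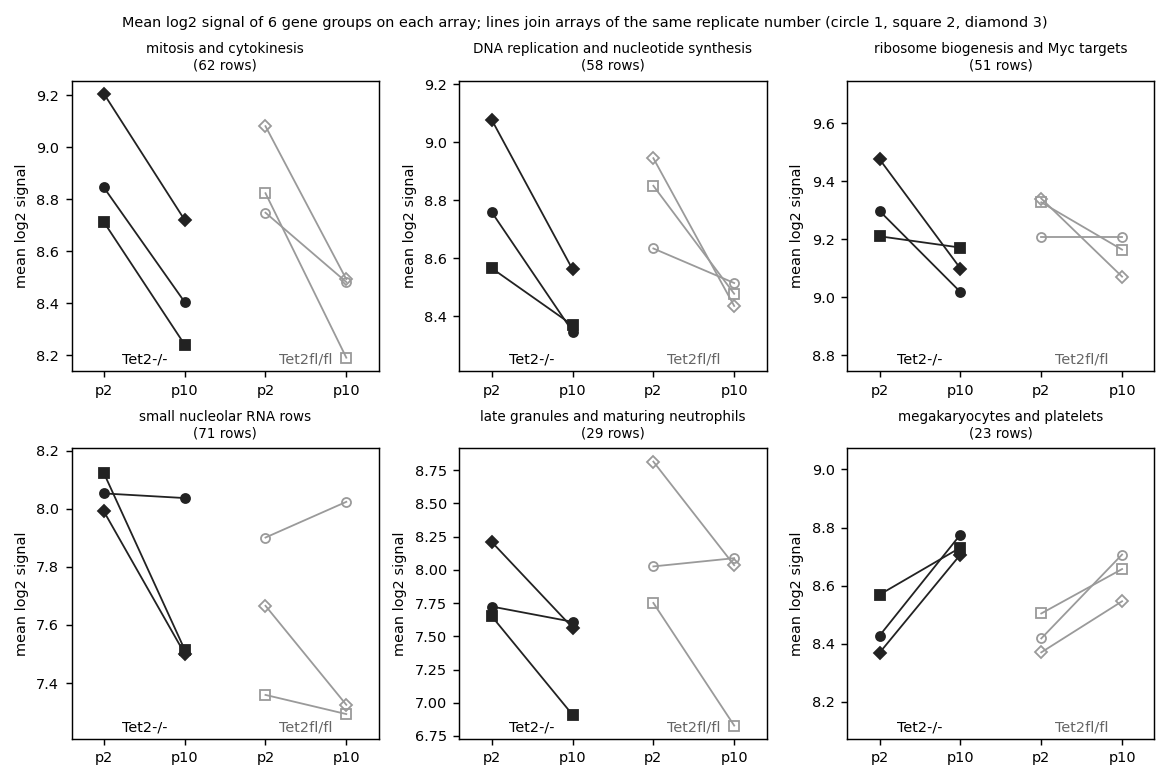
Mean log2 signal of 6 gene groups on each array at passage 2 and passage 10, with Tet2-/- cells in black and Tet2fl/fl cells in grey; lines join arrays with the same replicate number. The Tet2-/- mitosis means run from 8.71 to 9.21 on the passage 2 arrays and lie between 8.24 and 8.72 on the passage 10 arrays, with parallel lines, whereas the small nucleolar RNA mean of replicate 1 hardly moves (8.05 and 8.04).

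Genes of ribosome assembly fell in part. Of 51 genes of ribosome biogenesis and the Myc targets, 10 fell (19.61%, against 4.68% of all genes) and 1 rose (1.96%, against 3.26%). The median was -0.26. The falls were mainly in the nucleolar group, 8 of 31. Myc, the transcription factor that drives growth genes, was 11.10, 11.11 and 11.06 at passage 2 and 10.45, 10.65 and 10.38 at passage 10. It fell by 0.60 (SE 0.14, adjusted p = 0.0337), a level 1.52-fold lower, with no overlap, and its adjusted p was 0.0517 without the block. Nop58, a core protein of box C/D small nucleolar particles, was 9.82, 9.84 and 10.04 and then 9.04, 9.20 and 9.21, and fell by 0.75 (SE 0.13, adjusted p = 0.0129). Its partner Nop56 fell by 0.65 and Gnl3, nucleostemin, by 0.63, and these 3 passed without the block too. With 1 Tet2-/- array left out, Nop58 passed in 2 of 6 fits, Nop56 and Gnl3 in 1 and Myc in 0 (adjusted p from 0.0504 to 0.126). Nolc1, a nucleolar assembly factor, fell by 0.59, and Nhp2, of the box H/ACA particles, by 0.56. The 1 gene that rose was Mxd4, a Max partner that opposes Myc, by 0.53 (adjusted p = 0.0183). Of 73 ribosomal protein genes 0 rose and 2 fell (2.74%, against 4.68% of all genes). These were Rpl6, by 0.61, and Rpl26, by 0.31, and the median over the 73 was -0.01. The E-box CACGTG, the site of Myc and Max, was in 31.6% of the 57 promoter windows of the ribosome list. The share was 9.08% in the windows of all genes tested and 7.15% in all windows. In replicate 2 the list hardly moved, with a median of -0.05 against -0.34 and -0.48 in replicates 1 and 3. Leaving out passage 2 replicate 2 raised the falls to 16, while 0 remained without passage 2 replicate 1 or 3 or passage 10 replicate 2 or 3, and 1 without passage 10 replicate 1. Without the block 5 fell.

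Rows of small nucleolar RNAs, which guide the modification of ribosomal RNA, were lower as well. Of 71 rows, 13 fell (18.31%, against 4.68% of all genes) and 0 rose, with a median of -0.37. Replicate 1 stood apart with a median difference of -0.14, against -0.66 and -0.48 in replicates 2 and 3. Of the 13 that passed Snora20 had the largest difference. It was 6.33, 6.33 and 6.67 and then 5.48, 4.94 and 5.33, and fell by 1.19 (SE 0.19, adjusted p = 0.0117). Snord42b was 7.68, 7.31 and 7.76 and then 6.60, 6.36 and 6.64, and fell by 1.05 (SE 0.15, adjusted p = 0.00911). Snora23 fell by 0.98 and Snora75 by 1.08. In these 4 rows, named after their values were seen, all passage 10 arrays were below all passage 2 arrays. Most small nucleolar RNAs lie in introns of host genes, and these rows do not separate the mature RNA from its precursor. Without the block 8 rows fell. With 1 Tet2-/- array left out, Snord42b passed in 5 of 6 fits, Snora20 in 3, and Snora23 and Snora75 in 0. Without Tet2-/- passage 2 replicate 1, 2 or 3 the count was 2, 4 or 0, and without passage 10 replicate 1, 2 or 3 it was 6, 2 or 1.

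Few microRNA rows fell. Of 213 rows 9 fell (4.23%) and 0 rose, near the 4.68% of all genes that fell, and the median was -0.01 (0.03 with equal array medians and 0.04 after quantile normalization). The rows were assigned by gene symbol and their probe positions were not analysed here. How much mature microRNA was made cannot be read from them. The 9 included 3 hairpins of the Mir17 to Mir92a cluster on chromosome 14 and Mir106b of the related cluster on chromosome 5. The others were Mir1949 (-1.11), Mir5103 (-0.84), Mir3068 (-0.80), Mir181b-1 (-0.77) and Mirlet7d (-0.53), and a shared role of the 9 was not tested. Mature forms are shown for the hairpins of these 2 clusters, since 2 of the products have the same seed. Capitals mark the seed, bases 2 to 8.
miR-17-5p: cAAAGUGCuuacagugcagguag
miR-106b-5p: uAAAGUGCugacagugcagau
miR-18a-5p: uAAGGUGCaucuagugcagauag
miR-19a-3p: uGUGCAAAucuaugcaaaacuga
The sequences are those of RefSeq for GRCm38.p6, at chr14:115043684-115043706, chr5:138165787-138165807 (minus strand), chr14:115043867-115043889 and chr14:115044048-115044070. miR-17-5p and miR-106b-5p have the same seed, AAAGUGC, and miR-18a-5p (AAGGUGC) and miR-19a-3p (GUGCAAA) each have another. The row of Mir19a was 5.76, 5.43 and 5.80 at passage 2 and 4.62, 4.28 and 4.18 at passage 10, and fell by 1.30 (SE 0.28, adjusted p = 0.0253). Its passage 10 values lay below log2 4.70, the signal filter set on the mean of 12 arrays, so the size of this fall is uncertain. Mir17 was also near that level at passage 10, at 4.96, 4.55 and 4.60. Mir18 was 6.85, 6.64 and 6.69 and then 6.21, 5.97 and 5.76, and fell by 0.75 (SE 0.11, adjusted p = 0.00925). Mir17 fell by 0.55 and Mir106b by 0.59, and in all 4 rows the groups were apart. Mcm7, the helicase gene that hosts Mir106b, differed by -0.43 and did not pass (adjusted p = 0.0743). Dleu2, the host transcript of Mir15a and Mir16-1, fell by 1.26 (adjusted p = 0.0164), yet the row of Mir15a differed by -0.18 and that of Mir16-1 by 0.03, and neither passed. These rows were named after their values were seen. Without the block 4 of the 213 rows fell. With 1 Tet2-/- array left out, Mir18 passed in 5 of 6 fits, Mir17 and Mir106b in 2 and Mir19a in 1. Leaving out passage 2 replicate 1, 2 or 3 left 1, 5 or 0 falls, and leaving out passage 10 replicate 2 or 3 left 1 or 2.

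**Figure D3:**
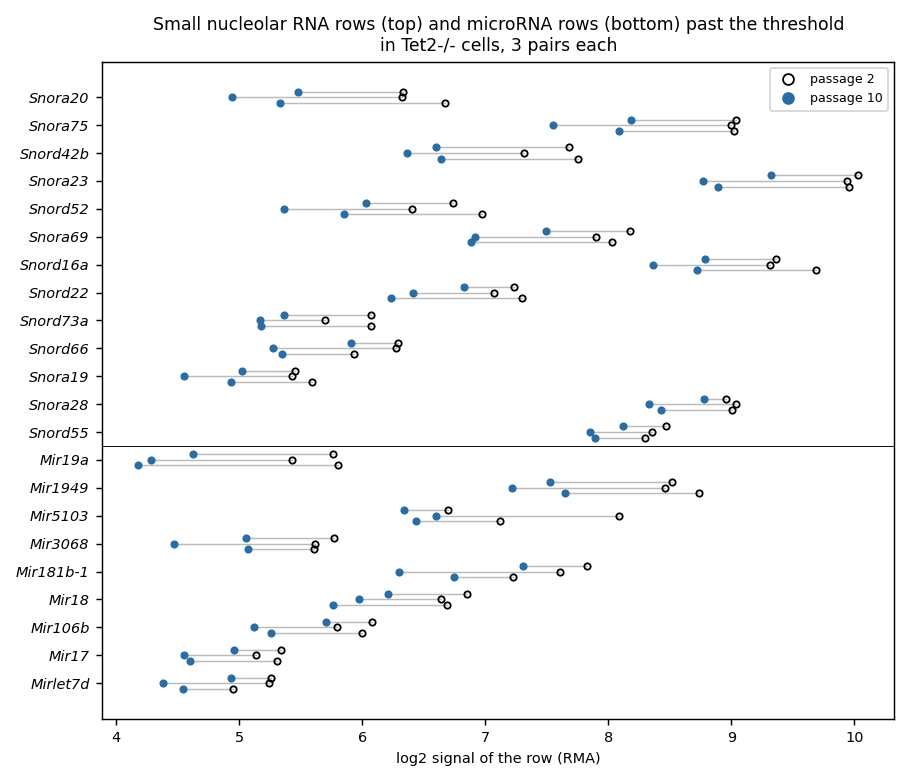
Log2 signal of each small nucleolar RNA row (top) and microRNA row (bottom) past the threshold in Tet2-/- cells, with open points for passage 2, filled points for passage 10 and 1 line for each replicate number (replicate 1 at the top). Each line of the 13 and 9 rows runs to lower signal at passage 10. Snora20 falls by 1.19 and Mir19a by 1.30, the latter to below the signal filter of log2 4.70.

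Of the 15 largest falls 4 were in genes of maturing neutrophils. Of 29 genes of late granules and maturing neutrophils, 6 fell (20.69%, against 4.68% of all genes) and 1 rose (3.45%, against 3.26%). The median was -0.18, and 23 of the 29 differences were negative. S100a8, a subunit of the antimicrobial protein calprotectin, was 9.73, 9.27 and 10.78 at passage 2 and 7.90, 6.31 and 7.42 at passage 10. It fell by 2.72 (SE 0.54, adjusted p = 0.0208), to a level 6.58-fold lower and the largest change of any gene tested. Its partner S100a9 was 8.29, 8.08 and 8.90 and then 7.43, 5.68 and 6.98, and fell by 1.73 (SE 0.39, adjusted p = 0.0293). In both genes the groups were apart and replicate 2 was the lowest at each passage. Chil3, a chitinase-like protein of neutrophils and macrophages, fell by 2.25 (4.76-fold). Ngp, the neutrophilic granule protein, fell by 2.03 (4.10-fold). Mmp8, the neutrophil collagenase, was 12.14, 11.21 and 12.20 and then 11.27, 9.59 and 11.03, and fell by 1.22 (SE 0.32, adjusted p = 0.0458). Its groups overlapped, with 11.21 in passage 2 replicate 2 and 11.27 in passage 10 replicate 1. Csf3r, the receptor of G-CSF, fell by 0.55 (adjusted p = 0.0301). The 1 gene that rose was Padi4, which citrullinates histones in neutrophils, by 0.49.

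Among 14 primary granule genes, made earlier in neutrophil development, Elane alone fell (7.14%, against 4.68% of all genes) and 0 rose. This gene of neutrophil elastase was 11.33, 10.89 and 11.86 and then 10.03, 8.92 and 10.07, and fell by 1.69 (SE 0.41, adjusted p = 0.038), and the median of the 14 genes was -0.35. In bulk RNA fewer cells of a type and less RNA per cell cannot be told apart. Without the block none of these 7 falls passed, and the adjusted p lay between 0.079 (Ngp) and 0.42 (Csf3r). Of the late granule genes 0 fell without Tet2-/- passage 2 replicate 3 or passage 10 replicate 2 or 3, 1 without passage 2 replicate 2 or passage 10 replicate 1, and 2 without passage 2 replicate 1. Chil3 passed in 3 of these 6 fits, S100a8 in 1, and S100a9, Ngp, Mmp8, Csf3r and Elane in 0. Padi4, which rose, passed in 2. The mean of the 29 genes was 7.72, 7.65 and 8.21 at passage 2 and 7.61, 6.91 and 7.57 at passage 10, so that replicate 1 moved little. The 9 eosinophil genes tested held no call, and their median was 0.31, with pair medians of 0.93, -0.34 and 0.34.

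Other large falls were in genes outside the lists. Tfec, a transcription factor of the MiT family active in macrophages, was 9.57, 8.84 and 10.26 and then 7.75, 5.89 and 7.64, and fell by 2.46 (SE 0.33, adjusted p = 0.00881), or 5.51-fold. Car4, carbonic anhydrase 4, was 8.03, 7.26 and 9.54 and then 6.80, 5.12 and 5.96, and fell by 2.32 (SE 0.38, adjusted p = 0.0127). In both the highest passage 10 array was below the lowest passage 2 array. Prrg1, a membrane Gla protein, was 7.21, 6.63 and 7.94 and then 5.61, 4.17 and 5.54, and fell by 2.15. Sgms2, a sphingomyelin synthase, fell by 1.87, and Ch25h, which makes 25-hydroxycholesterol, fell by 1.59. Clec5a, a myeloid lectin receptor, fell by 1.47, and Tbc1d19 by 1.45. Tacr1, the receptor of substance P, was 7.34, 7.04 and 7.95 and then 5.86, 5.91 and 6.10, and fell by 1.48 (SE 0.14, adjusted p = 0.00513). Its passage 10 arrays were close together and below all passage 2 arrays. Cstdc4, of the stefin family of protease inhibitors, fell by 1.62 although its groups overlapped, with values from 5.40 to 7.80 and then from 3.10 to 6.20. In passage 10 replicate 2 Cstdc4 (3.10) and Prrg1 (4.17) lay below the signal filter of log2 4.70. The sizes of these 2 falls are therefore uncertain. Sgms2, Ch25h and Tacr1 also passed without the block, whereas the adjusted p of Tfec, Car4 and Prrg1 was then 0.0782, 0.121 and 0.0744. Tfec and Tacr1 passed without any 1 of the Tet2-/- arrays, and Car4 and Sgms2 without all but passage 2 replicate 3 (adjusted p = 0.064 and 0.0547). Prrg1 passed in 4 of these 6 fits, Cstdc4 in 3, Ch25h in 2, and Clec5a and Tbc1d19 in 1.

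**Figure D4:**
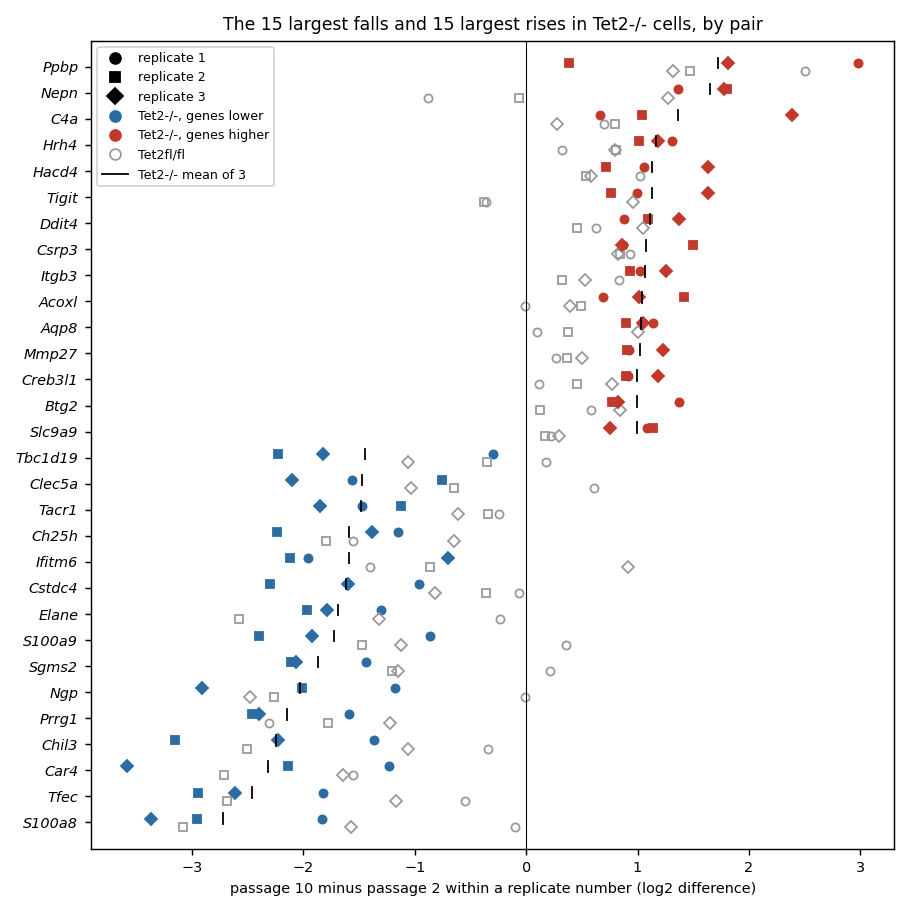
Passage 10 minus passage 2 within each replicate number for the 15 largest falls and 15 largest rises that passed in Tet2-/- cells (log2 difference), with filled symbols for Tet2-/-, open grey symbols for Tet2fl/fl and a bar at the Tet2-/- mean of 3. All 3 filled symbols of each gene lie on 1 side of 0, which the choice of genes required. S100a8 has the lowest mean (-2.72) and Ppbp the highest (1.73), with replicate 2 of Ppbp near 0.39.

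Genes of megakaryocytes and platelets were among the largest rises. Of 23 tested, 4 rose (17.39%, against 3.26% of all genes) and 0 fell, with a median of 0.21, and 21 of the 23 differences were positive. Ppbp, a platelet chemokine, was 6.79, 7.16 and 7.19 at passage 2 and 9.77, 7.55 and 9.01 at passage 10. It rose by 1.73 (SE 0.42, adjusted p = 0.0372), a level 3.31-fold higher, with no overlap, but replicate 2 rose by only 0.39. Itgb3, the beta chain of the platelet fibrinogen receptor, was 8.67, 9.35 and 8.46 and then 9.70, 10.28 and 9.71, a rise of 1.07 (SE 0.10, adjusted p = 0.00513). Rab27b, which moves granules to the membrane, rose by 0.51, and Zfpm1 (FOG-1), the partner of GATA1, by 0.48. Without the block none of the 4 passed, with adjusted p between 0.0512 and 0.0816. The count was 1 without passage 2 replicate 1 or 3 or passage 10 replicate 3. Itgb3 passed without any 1 of the Tet2-/- arrays, Rab27b and Zfpm1 in 3 of those 6 fits, and Ppbp in 1, with a difference between 1.20 and 2.37.

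Some integrin and adhesion genes changed too. Of 35 integrin and adhesion genes 6 rose (17.14%, against 3.26% of all genes) and 1 fell (2.86%, against 4.68%). Besides Itgb3, these were Itgae, the alpha chain of the E-cadherin receptor, by 0.75, its partner Itgb7 by 0.64, Itgb5 by 0.58, Icam4 by 0.37 and Selplg, the ligand of P-selectin, by 0.29. Itgae was 5.54, 5.77 and 5.42 and then 6.13, 6.86 and 5.98, with the groups apart. Cd44, the hyaluronan receptor, fell, from 6.76, 6.77 and 7.33 to 6.36, 5.03 and 5.64, by 1.28 (SE 0.31, adjusted p = 0.0353). None of the 7 passed without the block. With 1 Tet2-/- array left out, Itgb7 passed in 2 of 6 fits and Itgae, Itgb5 and Cd44 in 1. The count of rises was 1 without passage 2 replicate 3 or passage 10 replicate 2 or 3, 2 without passage 2 replicate 1 and 3 without passage 10 replicate 1.

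Of 39 mast cell and basophil genes 3 rose (7.69%, against 3.26% of all genes) and 0 fell, with a median of 0.11. Among the 11 granule protease and matrix genes of this list 0 passed, 5 differences were positive and 6 negative, and the median was -0.004. Slc18a2, the transporter that loads amines into granules, was 10.86, 11.20 and 10.59 and then 11.62, 11.88 and 11.44, a rise of 0.76 (adjusted p = 0.00881), with the groups apart. The others were Rab27b and Gata1, a master regulator of the erythroid and megakaryocyte lines, which rose by 0.43 (adjusted p = 0.0437). Among 23 erythroid genes 3 rose (13.04%, against 3.26% of all genes) and 1 fell (4.35%, against 4.68%). Gata1, Urod of haem synthesis (0.50) and Tfr2, a transferrin receptor that senses iron (0.49), rose. Tfrc, the transferrin receptor that takes up iron, was 8.89, 9.02 and 8.72 and then 8.29, 8.17 and 8.18, and fell by 0.67 (SE 0.15, adjusted p = 0.0273). Both transferrin receptors thus moved, in opposite directions, and in each the groups were apart. Tfr2 alone of these passed without the block. Of 18 iron handling genes 2 rose and 2 fell (11.11% each, against 3.26% and 4.68% of all genes), among them Tfr2 and Tfrc. The others were Hmox1, which breaks down haem and rose by 0.64, and Slc39a8, a zinc and iron importer, which fell by 0.60. Hmox1 passed in 1 and Slc39a8 in 5 of the 6 fits that left out a Tet2-/- array. Slc18a2 passed in all but 1 of the 6 fits that left out a Tet2-/- array (without passage 2 replicate 3 its adjusted p was 0.0513), whereas Gata1, Urod and Tfrc passed in none of them. Of the mast cell list 2 genes rose and 5 fell without passage 10 replicate 1, 1 rose without passage 2 replicate 1, and 0 without passage 2 replicate 3. Of the erythroid list 1 rose without passage 2 replicate 2 or passage 10 replicate 3, and 0 rose without any other of the 4 Tet2-/- arrays.

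Monocyte, dendritic and antigen presentation genes showed single changes. Of 39 monocyte and macrophage genes 3 rose (7.69%, against 3.26% of all genes) and 0 fell: Hmox1 and the lysosomal proteases Ctsb and Ctsd. Ctsb was 10.94, 10.87 and 10.83 and then 11.33, 11.31 and 11.30, a rise of 0.44 (SE 0.10, adjusted p = 0.0339). Ctsd rose by 0.32, and both passed without the block, but in none of the fits that left out 1 Tet2-/- array (adjusted p from 0.0679 to 0.143). H2-Oa, a brake on peptide loading of MHC class II, was 8.67, 9.25 and 8.70 and then 9.62, 10.11 and 9.62, a rise of 0.91 (SE 0.11, adjusted p = 0.00688). H2-DMa, which speeds that loading, differed the other way and fell by 0.60 with overlapping groups. Tcf4, needed by plasmacytoid dendritic cells, fell by 0.69, and Flt3, a receptor of progenitors and dendritic cells, by 0.46. These were the 4 of 20 genes that passed, and H2-Oa alone passed without the block. Of the 20, 5% rose and 15% fell, against 3.26% and 4.68% of all genes. It also passed without any 1 of the Tet2-/- arrays, while Flt3 passed in 1 of those 6 fits and Tcf4 and H2-DMa in 0. None of the 13 lymphocyte and 12 stromal and endothelial genes tested passed, with medians of 0.12 and 0.10. The means of the lymphocyte list lay between 5.66 and 5.74 at passage 2 and between 5.72 and 5.89 at passage 10.

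The alpha chains of the IL-3 and IL-6 receptors passed in opposite directions, and neither passed without the block. Il3ra, the IL-3 receptor alpha chain, was 9.10, 9.20 and 9.10 and then 9.51, 9.90 and 9.65, a rise of 0.56 (SE 0.13, adjusted p = 0.0334). Il6ra, the IL-6 receptor, was 7.55, 6.94 and 7.92 and then 6.98, 6.64 and 6.73, and fell by 0.69 (SE 0.17, adjusted p = 0.0424) with overlapping groups. Kit, the SCF receptor, did not pass. Of 59 stem and progenitor regulators, Il3ra and Msi2, an RNA-binding protein of stem cells (0.36), rose, while Il6ra, Csf3r and Flt3 fell. None of the 5 passed without the block, and the shares, 3.39% higher and 5.08% lower, were near those of all genes. With 1 Tet2-/- array left out, Il3ra and Csf3r passed in 0 of 6 fits and Il6ra, Msi2 and Flt3 in 1.

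A few genes that restrain growth passed, in both directions. Of 44 candidates 3 rose (6.82%, against 3.26% of all genes) and 3 fell (6.82%, against 4.68%), with a median of 0.12. Btg2, an antiproliferative gene that p53 can induce, was 7.88, 8.77 and 8.36 and then 9.25, 9.55 and 9.19, a rise of 0.99 (SE 0.21, adjusted p = 0.0244). Tgfbr2, a TGF-beta receptor, rose by 0.68. Cdkn2d, the CDK4 and CDK6 inhibitor p19, was 8.01, 8.03 and 8.02 and then 8.50, 8.43 and 8.43, a rise of 0.43 (SE 0.08, adjusted p = 0.0151). Its arrays were tight within each passage and clearly apart. Spry2, a feedback inhibitor of receptor signalling, fell by 0.69, Mtss1 by 0.50 and Rbl1, the pocket protein p107, by 0.49. Btg2, Cdkn2d and Rbl1 passed without the block. Of the list 3 rose and 1 fell without passage 2 replicate 2, 2 rose without passage 10 replicate 3, and 0 passed without any other of the 4 Tet2-/- arrays.

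Of 33 p53 pathway genes 4 rose (12.12%, against 3.26% of all genes) and 3 fell (9.09%, against 4.68%). Beside Btg2 these were Ddit4 (REDD1), an inhibitor of mTORC1, and the proapoptotic Bbc3 (0.57) and growth-arrest gene Gadd45g (0.42). Ddit4 was 9.69, 9.67 and 9.14 and then 10.57, 10.77 and 10.51, a rise of 1.12 (SE 0.15, adjusted p = 0.00881), or 2.17-fold. Trp53i11 fell by 0.82, Mdm4, which restrains p53, by 0.39, and Gtse1 by 0.38. Ddit4, Btg2 and Trp53i11 passed without the block. Ddit4 passed without any 1 of the Tet2-/- arrays and was the 1 gene of the list to rise without any of them but passage 2 replicate 2. Trp53i11 passed in 4 of those 6 fits, Btg2 and Gadd45g in 1, and Bbc3 and Mdm4 in 0.

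In the list of ATF4 and the amino acid response, 9 of the 10 factors and brakes had a positive difference (median 0.17). Of the 16 genes of synthesis and transport 14 had a negative one (median -0.28). In Tet2fl/fl cells 7 of the 10 were positive and 13 of the 16 negative. Over all 16860 genes 9716 differences were positive and 7144 negative in Tet2-/- cells. Ddit4 and Ppp1r15a (GADD34), which restores translation after stress, rose, the latter by 0.53 (adjusted p = 0.025). Asns, asparagine synthetase, fell by 0.82, Got1, an aspartate aminotransferase, by 0.71 and Eprs, a tRNA synthetase, by 0.34. Got1 lay between 8.67 and 9.07 at passage 2 and at 8.29 or lower at passage 10, with the groups apart. Of the list 2 of 35 rose (5.71%, against 3.26% of all genes) and 3 fell (8.57%, against 4.68%). Ddit4, Ppp1r15a and Got1 passed without the block. Ddit4 and Got1 passed without any 1 of the Tet2-/- arrays, Asns and Ppp1r15a in 1 of those 6 fits, and Eprs in 0.

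In the NF-kB and inflammation list 3 of 35 rose (8.57%, against 3.26% of all genes) and 1 fell (2.86%, against 4.68%). Ccl17, a chemokine of type 2 immunity, was 5.91, 6.76 and 6.76 and then 7.02, 7.56 and 7.69, a rise of 0.95 (SE 0.09, adjusted p = 0.00513). Nfkbia and Tnip1, both feedback inhibitors of NF-kB, rose by 0.52 and 0.45, and Il1rn, the IL-1 receptor antagonist, fell by 0.41. Tnip1 alone passed without the block. Ccl17 passed without any 1 of the Tet2-/- arrays, Nfkbia in 1 of those 6 fits, and Tnip1 and Il1rn in 0. Of 27 Notch pathway genes 1 rose (3.70%, near the 3.26% of all genes) and 0 fell. This gene, the receptor Notch3, was 7.83, 7.95 and 7.80 and then 8.39, 8.48 and 8.50. It rose by 0.60 (SE 0.07, adjusted p = 0.00769) and also passed without the block or any 1 of the Tet2-/- arrays. In the stress list 2 of 33 genes rose (6.06%, against 3.26% of all genes) and 1 fell (3.03%, against 4.68%). Btg2 and Dusp5, a phosphatase of ERK (0.36), rose, and Hsp90aa1 fell by 0.35. Dusp5 and Hsp90aa1 passed in 0 of the 6 fits without a Tet2-/- array.

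Metabolic lists held few changes. None of 36 genes of glycolysis and hypoxia passed with or without the block, and their differences ran from -0.34 to 0.56 around a median of 0.03. The nearest was Aldoc, an aldolase, at 0.56 (adjusted p = 0.0738). In the fit of the 6 Tet2-/- arrays alone 1 of these genes passed. Of 35 genes of cholesterol and fatty acid metabolism, Acss2, which makes acetyl-CoA from acetate, rose by 0.89 and Mylip, an LXR target that degrades the LDL receptor, by 0.52, while Hsd17b7 of cholesterol synthesis fell by 0.46. None of the 3 genes passed without the block. Of the list 5.71% rose and 2.86% fell, against 3.26% and 4.68% of all genes. Acss2 passed without any 1 of the Tet2-/- arrays, and Mylip and Hsd17b7 in 1 of those 6 fits.

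Other rises of the first rank had no shared list. Nepn, nephrocan, an extracellular leucine-rich repeat protein, was 7.30, 7.66 and 7.11 and then 8.66, 9.47 and 8.89, a rise of 1.65 (SE 0.35, adjusted p = 0.0245). C4a, a complement gene, rose by 1.36, Hrh4, the histamine H4 receptor, by 1.17, Hacd4, an enzyme of very long fatty acids, by 1.13, and Csrp3, a LIM-domain muscle protein, by 1.08. The row of C4a may take up RNA of its near copy C4b. Hrh4 was 8.16, 8.78 and 7.98 and then 9.47, 9.80 and 9.17, with no overlap. Tigit, an inhibitory lymphocyte receptor, was 5.96, 7.57 and 6.46 and then 6.96, 8.33 and 8.09, a rise of 1.13 (SE 0.28, adjusted p = 0.0402) with overlapping groups. Nepn, C4a and Hacd4 passed without the block, whereas Hrh4, Csrp3 and Tigit had an adjusted p of 0.0582, 0.116 and 0.198. On leaving out 1 Tet2-/- array Hrh4 and Csrp3 passed in all 6 such fits, Hacd4 in 5, C4a in 2, Tigit in 1 and Nepn in 0 (adjusted p from 0.0539 to 0.108).

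In the type I interferon list 5 of 35 genes fell (14.29%, against 4.68% of all genes) and 0 rose, while the median was -0.00. Ifitm3, which blocks virus entry, was 9.48, 9.12 and 9.62 and then 8.68, 8.22 and 8.78, and fell by 0.85 (SE 0.10, adjusted p = 0.00688). Each pair fell and the groups were apart. Its relative Ifitm6 was 8.12, 8.26 and 8.52 and then 6.16, 6.14 and 7.82, and fell by 1.59 (SE 0.39, adjusted p = 0.0381). The RNA sensor Ifih1 (MDA5) fell by 0.79, Ifit2 by 0.54 and the kinase Eif2ak2 (PKR) by 0.40. Ifitm3 and Eif2ak2 passed without the block. The count of falls was 1 without any Tet2-/- array except passage 2 replicate 2, without which it was 2. Ifitm3 was that gene in each case. After quantile normalization 2 genes of the list rose and 4 fell.

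The Tet2fl/fl cells, grown for the same passages, give the background of culture without 4-OHT. At the same threshold 7 genes passed there (0.0415%), 1 higher (0.00593%) and 6 lower (0.0356%), and 6 of them also passed in the same direction in Tet2-/- cells. Among these were Anln, Kif11 and Cdkn3, named after their values were seen, which fell by 0.65, 0.63 and 0.64 in Tet2fl/fl cells. Of the 550 genes that rose in Tet2-/- cells 512 had a positive difference in Tet2fl/fl cells, with a median of 0.21, and of the 789 that fell 759 had a negative one, with a median of -0.26. Of all 16860 genes 9763 had a positive and 7097 a negative difference in Tet2fl/fl cells. The 2 comparisons share no array, but same-numbered arrays of both genotypes deviated together, so they are not independent. Across all genes their differences had a Pearson r of 0.63 and a Spearman rho of 0.58. This is a description, since genes are not independent. The median of the mitosis genes was -0.50 in Tet2fl/fl cells against -0.45 in Tet2-/- cells, and that of the replication genes -0.37 against -0.40. Medians of the small nucleolar RNA rows were -0.08 and -0.37 and those of the late granule genes -0.38 and -0.18. The pairs were less alike in Tet2fl/fl cells, where their differences correlated across genes at 0.12, 0.01 and 0.41, against 0.41, 0.56 and 0.47 in Tet2-/- cells. The lower number of calls there does not show that the genotypes differ.

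**Figure D5:**
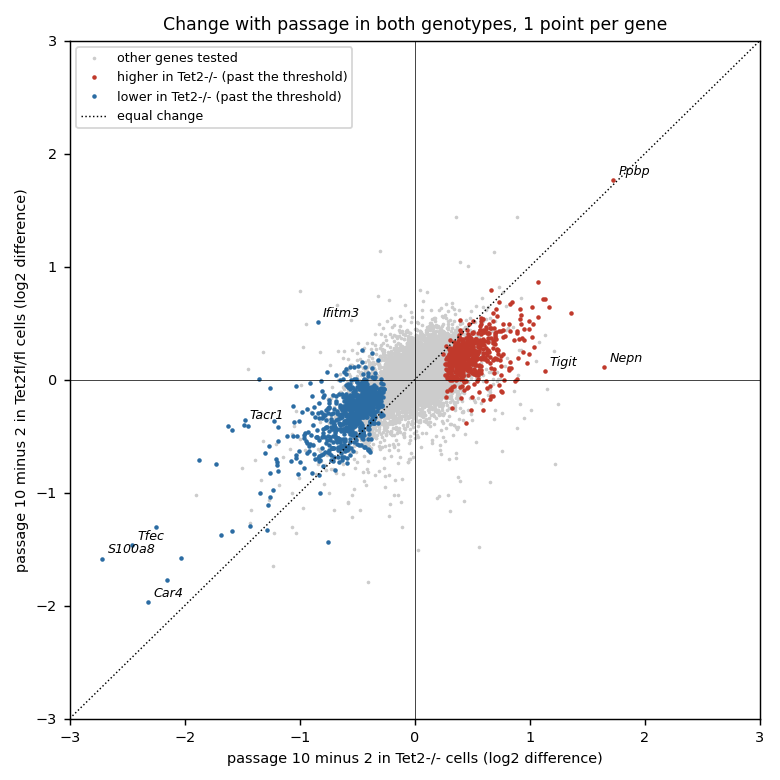
Passage 10 minus passage 2 in Tet2-/- cells (horizontal) against the same in Tet2fl/fl cells (vertical), log2 difference, 1 point per gene, with genes past the threshold in Tet2-/- cells in red (higher) and blue (lower) and a dotted line of equal change. Most coloured points lie on the same side of 0 in both genotypes (512 of 550 and 759 of 789); Ifitm3 lies at -0.85 and 0.51, and Ppbp at 1.73 and 1.77.

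The difference between the passage effects of both genotypes was tested gene by gene as an interaction. In the fit with the block 1 gene passed, with the lower effect in Tet2-/- cells (0.00593%), and 838 had an unadjusted p under 0.05, 4.97% of all. That gene was Ifitm3, which was 9.65, 9.51 and 9.61 at passage 2 and 10.27, 9.72 and 10.31 at passage 10 in Tet2fl/fl cells, a difference of 0.51 (adjusted p = 0.083). The effects differed by -1.35 (SE 0.14, adjusted p = 0.0432). The adjusted p was 0.999 without the block and lay above the threshold under 20 of 26 other settings, while the difference stayed between -1.48 and -1.24. It was lost on leaving out any single array except Tet2fl/fl passage 2 replicate 2, with adjusted p from 0.0849 to 0.275. Hyal3, a hyaluronidase, Tacr1 and Niban1 rose or fell in Tet2-/- cells by 0.84, -1.48 and 0.69 and differed in Tet2fl/fl cells by 0.10, -0.40 and 0.19, but their interactions did not pass (adjusted p = 0.841 for each). Nepn, at 1.65 against 0.11, did not pass either (adjusted p = 0.942). For the mitosis genes and the small nucleolar RNA rows 0 interactions passed.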

How the data were processed

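RNA of sorted AML1-ETO cells (100 ng of total RNA per sample) was hybridised to 12 Affymetrix arrays, 3 in each of 4 groups taken from the labels. The authors deposited log2 values from RMA in Affymetrix Power Tools, per the submitters' processing notes, whose version was not given in the sources used here. Array medians lay between 5.57 and 5.68. RMA sets arrays to a common distribution before summary, so that a general rise or fall of RNA is not seen.

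Of 41345 rows, 23521 had 1 gene symbol in the probe annotation, 1814 several and 16010 none; 23328 symbols were updated by gene ID from RefSeq for GRCm38.p6 and 193 kept. Rows with a mean over 12 arrays at or above the 30th percentile (log2 4.70) were kept, with the highest row per gene, which left 16860 genes. Group means and the replicate number were fitted with limma 3.58.1 under R 4.3.3 to the 12 arrays together (6 residual and 3.93 prior degrees of freedom; checked on simulated data). P-values are two-sided and adjusted by Benjamini-Hochberg over all genes, with 0.05 as the threshold. SE is the standard error of the fit, and a difference between genotypes is the interaction term.

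The numbers come from the labels, which do not say what they mark. Deviations from the group means correlated at 0.201 to 0.517 in the 18 same-numbered pairs of arrays and at -0.369 to 0.0532 in the 36 others, so the numbers were taken as pairs. Alternatives were a fit without the block or with other blocks, other scalings, filters, variance models and rows per gene, and leaving out arrays.

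The 28 gene lists (864 of 1021 entries tested) and the comparison itself were chosen with earlier results of these data known, so no list was tested as a set. The text names Tet2, the 15 largest changes in each direction that passed with 3 pairs of 1 sign (without predicted genes), up to 6 members per list that passed (3 of the nearest where none did), and up to 10 genes for the difference between genotypes. Genes and rows outside this rule were chosen after their values were seen: Padi4, Mxd4, E2f2, Rfc2, Rpl6, Rpl26, Gtse1, Selplg, Kif11, Ckap2l, Top2a, Cdkn3, Mcm7, Dleu2, the small nucleolar RNA rows, the microRNA rows, and the genes of the label check. Mature microRNA and promoter sequences are from RefSeq tables of GRCm38.p6. Rows with several symbols or none were not analysed here.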

Additional observations from a re-analysis of the deposited data

Results flagged for a closer look

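Ifitm3 was set apart by a test of the difference between genotypes. Its passage effect in Tet2-/- cells minus that in Tet2fl/fl cells was -1.35 (interaction in limma, adjusted p = 0.0432), with all 3 Tet2-/- pairs lower and all 3 Tet2fl/fl pairs higher at passage 10. It was the 1 gene of 16860 that passed, and it passed under 6 of 26 other settings.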

How the results depend on the processing

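The count of 1339 genes moved with the pairing and, for some single arrays and for replicate numbers, more on leaving them out. It was 503 with no replicate block, 725 with the replicate block set within each genotype, 807 from the 6 Tet2-/- arrays alone and 3374 with array weights; it stayed within 1.5 times of 1339 with a random replicate block, other scalings, filters, the trend and robust variance models and the mean of a gene's rows. Leaving out 1 array gave 76 to 1465 calls, and leaving out 1 replicate number in all groups gave 0 to 56 (0 without replicate 2 or 3, where 3268 and 3062 genes had an unadjusted p under 0.05). The count of 1 for the difference between genotypes was 0 with no replicate block, a random replicate block, the replicate block within each genotype, equal array medians, no filter or array weights, and 0 to 1 on leaving out arrays or replicate numbers. The 128 called genes and rows named in the text kept their direction under each of these settings in which they were fitted (6 fell below the 50th percentile filter). Among rows that did not pass, the difference of Mir16-1 (0.03) lay between -0.0908 and 0.189 and that of Mir15a (-0.18) between -0.498 and 0.0357 on leaving out arrays or replicate numbers. With 3 arrays a group, the fits without an array also lose degrees of freedom, and what the arrays had in common within a replicate number was not recorded.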

Other observations

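Further large rises in Tet2-/- cells were in genes outside the lists. Creb3l1, a transcription factor released from the endoplasmic reticulum by cleavage, was 9.58, 9.41 and 8.88 at passage 2 and 10.49, 10.31 and 10.06 at passage 10, a rise of 1.00 (adjusted p = 0.00881). The metalloproteinase gene Mmp27 rose by 1.02 and the water channel gene Aqp8 by 1.03. Acoxl, related to peroxisomal acyl-CoA oxidases, rose by 1.04, and Slc9a9, a sodium-proton exchanger of endosomes, by 0.99. In these 5 genes all passage 10 arrays were above all passage 2 arrays, and each passed without the block as well. On leaving out 1 Tet2-/- array Creb3l1 and Mmp27 passed in all 6 fits. Acoxl and Slc9a9 passed in 5, being lost without passage 2 replicate 3 (adjusted p = 0.0547 for each), and Aqp8 in 2.

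Alox15, a lipoxygenase of eosinophils and macrophages, was 8.62, 8.78 and 8.95 at passage 2 and 10.45, 9.09 and 10.47 at passage 10. The difference of 1.22 did not pass (adjusted p = 0.128), although the groups were apart, and replicate 2 moved little. In Tet2fl/fl cells the difference was -0.75, with 7.90 in passage 10 replicate 2 and 10.18 to 10.40 on the other 5 arrays.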
